A study of Homo sapiens with 6 samples.

Results

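SULF2 and 9 enzymes that build the heparan sulfate chain were followed through 6 RNA-seq libraries of CFPAC-1 cells. The 10 genes (SULF2, EXT1, EXT2, NDST1, GLCE, HS2ST1, HS6ST1, HS6ST2, HS3ST1 and HS3ST2) were taken by symbol from a deposited table of 59962 genes, and each symbol matched 1 row. All 10 passed the filter on low values, together with 16610 genes in all. CFPAC-1 is an established human line from a pancreatic ductal adenocarcinoma of a person with cystic fibrosis. There were 3 groups of 2 libraries, all of the same line. The control is described as a knockdown of LACZ, a bacterial gene that human cells lack (libraries LACZ_1 and LACZ_2), with no guide number given. The SULF2 knockdown groups carried sgRNA1 (S1_1 and S1_2) or sgRNA3 (S3_1 and S3_2). The labels name no untreated or guide-free group. The sources used here do not give the sequences of the guides, whether they cut DNA or repress transcription, or whether a group is 1 clone or a mixed population. Nor do the labels say that the paired libraries were grown separately, so a p-value reflects only how far libraries of a group differ, which may be technical.

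Heparan sulfate is a long, unbranched sugar chain attached to proteoglycans of the cell surface and matrix, where its sulfate groups bind growth factors, chemokines and proteases. The chain is polymerised in the Golgi by a complex of EXT1 and EXT2 and then modified in order. NDST1 replaces acetyl by sulfate on the nitrogen of glucosamine, GLCE turns glucuronic into iduronic acid, HS2ST1 sulfates the iduronic acid, HS6ST1 and HS6ST2 add the 6-O-sulfate of glucosamine, and HS3ST1 and HS3ST2 add the rare 3-O-sulfate. SULF2 acts last and outside the cell, where it removes 6-O-sulfate from finished chains, and it is known for its raised expression in several carcinomas, pancreatic cancer among them.

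Values are TPM, a measure of transcript abundance that corrects for transcript length and sums to the same total in every library. They keep no sequencing depth, so no counting interval can be given. A level of 1 TPM or more was reached by 15563 to 15923 genes in each library. Of 10 duct epithelium markers, 9 were at a TPM of at least 1 in all 6 libraries, while CFTR, a chloride channel, was at 0.07 to 0.38 TPM. The summed duct markers lay between 6726 and 6938 TPM in LACZ, 5846 and 5949 with sgRNA1, and 6267 and 6332 with sgRNA3. Acinar markers summed to at most 1.48 TPM and islet markers to at most 0.16 TPM in any library. Of 3 endothelial markers only PECAM1 was above 1 TPM (3.51 to 4.38), and of 4 leukocyte markers only CD14, at 3.61 and 8.94 TPM in LACZ, 4.23 and 6.36 with sgRNA1, and 2.26 and 2.52 with sgRNA3. Among 5 fibroblast markers, DCN, COL3A1 and PDGFRB were at 0 to 0.65 TPM in every library and LUM at 1.05 to 2.1. COL1A1 was at 74.81 and 74.02 TPM in LACZ, 57.42 and 55.51 with sgRNA1, and 39.01 and 35.08 with sgRNA3. It made up nearly all of the sum of the 5, which moved with the groups (75.99 to 76.51 TPM in LACZ, 57.21 to 59.68 with sgRNA1, 37.06 to 40.98 with sgRNA3). The part of these marker shifts in the results was not tested. These libraries are of a single line, and bulk RNA does not show whether a change lay in all cells or in some of them.

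The 10 genes are protein coding and lie on 10 chromosomes, so none neighbours another. SULF2 (ENSG00000196562) lies on chromosome 20 at 47656348 to 47786616 of GRCh38, on the minus strand, and spans 130.3 kb. GLCE (ENSG00000138604) lies on chromosome 15 at 69160584 to 69272217, and HS3ST2 (ENSG00000122254) on chromosome 16 at 22814177 to 22916338, both on the plus strand. In the annotation deposited with the table, 9 of the 10 carry the KEGG term for heparan sulfate synthesis, SULF2 being the exception, 6 carry a sulfotransferase domain, and EXT1 and EXT2 share the exostosin domain. SULF2 carries a sulfatase domain instead.

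The 250 bases before the start site are shown for SULF2, HS3ST2 and GLCE because these were the members that changed. The sequences come from RefSeq on GRCh38.p14, which gave such a window for 9 of the 10 genes, and run 5′ to 3′ on the strand of the gene. Capitals mark the GC box GGGCGG on either strand, a motif bound by the SP family of factors. The SULF2 window (chr20:47786628-47786877, minus strand) was chosen among 4 RefSeq starts as the only one with GENCODE 29 basic transcripts starting within 100 bases.
SULF2: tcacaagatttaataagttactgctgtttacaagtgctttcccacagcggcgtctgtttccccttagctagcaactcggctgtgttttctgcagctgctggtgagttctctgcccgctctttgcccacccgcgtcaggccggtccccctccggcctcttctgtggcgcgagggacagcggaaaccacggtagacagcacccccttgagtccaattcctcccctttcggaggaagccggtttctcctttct
HS3ST2 (chr16:22813912-22814161, plus strand): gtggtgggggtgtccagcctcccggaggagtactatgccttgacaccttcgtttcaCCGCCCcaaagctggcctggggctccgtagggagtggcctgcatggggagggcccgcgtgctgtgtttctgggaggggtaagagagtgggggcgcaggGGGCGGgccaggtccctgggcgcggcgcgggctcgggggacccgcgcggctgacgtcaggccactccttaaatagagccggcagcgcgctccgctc
GLCE (chr15:69160385-69160634, plus strand): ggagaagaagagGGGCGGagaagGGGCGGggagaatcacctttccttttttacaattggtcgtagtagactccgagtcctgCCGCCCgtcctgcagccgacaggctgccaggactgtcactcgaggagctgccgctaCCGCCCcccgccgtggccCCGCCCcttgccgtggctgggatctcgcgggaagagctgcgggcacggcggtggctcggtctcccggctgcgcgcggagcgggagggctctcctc
The SULF2 window held 0 GC boxes (those of its other 3 starts held 0 to 5), that of HS3ST2 2 and that of GLCE 5, and 42.64% of all 35116 windows of this length held at least 1. The AP-1 motif TGANTCA (in 6.57% of all windows), the EGR1 motif GCGNGGGCG (8.41%), the ATF4 and C/EBP motif TGATGNAA (3.14%) and the TATA box TATAAA (10.72%), each searched on both strands, were not among the letters of these 3 windows. An EGR1 motif may overlap a GC box. The G and C content was 56.8% for SULF2, 70.4% for HS3ST2 and 68.8% for GLCE, against a median of 58.0% over all windows. A match is a description of the letters and not a measured binding site, and TPM per gene does not show which start was used.

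SULF2 transcript fell with both guides, to 45.2% and 40.1% of its LACZ mean. It stood at 25.69 and 22.52 TPM in LACZ_1 and LACZ_2, at 8.98 and 12.81 in S1_1 and S1_2, and at 10.07 and 9.24 in S3_1 and S3_2. All 4 guide libraries were below both LACZ libraries, and S1_1 and S1_2 lay on either side of the sgRNA3 pair. The group means were 24.1 ± 2.24 TPM in LACZ (SD, n = 2), 10.9 ± 2.71 with sgRNA1 and 9.65 ± 0.587 with sgRNA3. On the log2(TPM + 1) scale used throughout, which understates changes of low genes, sgRNA1 gave a change of -1.09 (95% interval -1.55 to -0.64, limma adjusted p = 0.0338) and sgRNA3 one of -1.23 (95% interval -1.69 to -0.78, adjusted p = 0.0215). The interval of the difference between the guides ran from -0.59 to 0.31 (95%, limma adjusted p = 0.754).

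The fall of the targeted gene lay in the lower tail of the profile, but other genes fell further. Ranked by log2 change from the most lowered, SULF2 was 407th of 16610 tested genes with sgRNA1 and 309th with sgRNA3. This ranking takes no account of the spread of each gene. The sgRNA1 call was lost without LACZ_1, LACZ_2, S1_1, S3_1 or S3_2 (adjusted p = 0.159, 0.119, 0.0737, 0.0696 and 0.0695) and held without S1_2 (0.0496). The sgRNA3 call ended when LACZ_1, LACZ_2, S3_1 or S3_2 was left out (0.106, 0.0888, 0.0853 and 0.0973). With no filter on low values both calls were lost (0.0768 and 0.0528), as they were without an intensity trend (0.0675 and 0.0511), and the sgRNA1 call was also lost under quantile normalization (0.0530) and with only the groups compared (0.0672).

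SULF1, the only other 6-O-endosulfatase, was listed at 0 in all 6 libraries, so SULF2 made up the whole of that step in the table. SULF2 shares genome sequence with NCOA3, a nuclear receptor coactivator on the opposite strand whose end reaches into the end of SULF2. The annotated exons of the pair share 96 of the 6657 exonic bases of SULF2, and without stated strandedness reads from these bases cannot be assigned. NCOA3 was at 20.07 and 19.20 TPM in LACZ, 16.23 and 14.48 with sgRNA1, and 16.77 and 16.26 with sgRNA3, and did not pass (limma adjusted p = 0.103 and 0.179). The antisense gene AL354813.1 was at 0 to 0.03 TPM.

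**Figure D1:**
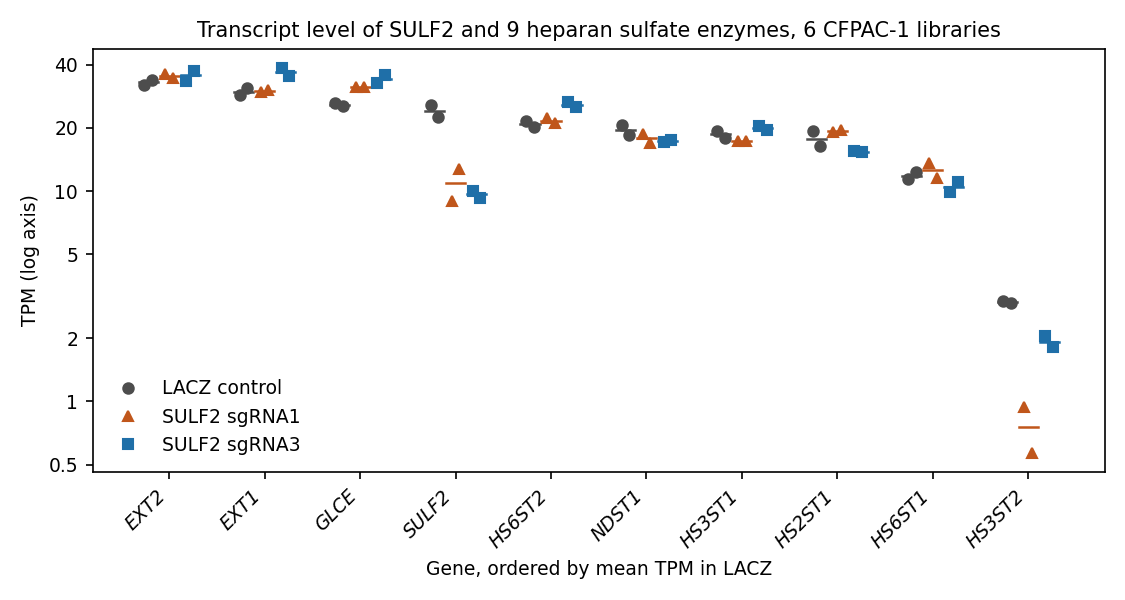
Transcript level of SULF2 and the 9 chain enzymes on a log axis of TPM, with a point for each of the 6 libraries and a short line at each group mean. SULF2 drops from 22.52 and 25.69 TPM in LACZ to between 8.98 and 12.81 in the 4 guide libraries, and HS3ST2 is the lowest gene in each group.

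In LACZ cells the chain enzymes other than HS3ST2 were expressed within a narrow range of TPM. EXT2 led at 33.0 ± 1.27 TPM (SD, n = 2), followed by EXT1 at 29.8 ± 1.56, GLCE at 25.7 ± 0.573 and SULF2 at 24.1 ± 2.24. HS6ST2 (21.0 ± 0.997), NDST1 (19.6 ± 1.46), HS3ST1 (18.6 ± 1.06) and HS2ST1 (17.8 ± 2.07) came next, then HS6ST1 (11.9 ± 0.672) and HS3ST2 (2.98 ± 0.0495). The LACZ libraries of GLCE and SULF2 overlapped, as did those of each neighbouring pair from HS6ST2 to HS2ST1, so their order within LACZ is not beyond the spread. SULF2 stood in place 4 of the 10 in LACZ and in place 9 with either guide, where its libraries overlapped those of HS6ST1. EXT2 was first in LACZ and with sgRNA1, and EXT1 with sgRNA3, where the libraries of EXT1, EXT2 and GLCE overlapped in turn.

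Of the 10 members, 2 passed with sgRNA1 (SULF2 and HS3ST2, both lower), against 6% of all genes tested (1.69% higher and 4.31% lower), or 281 higher and 716 lower genes. Under median-of-ratios scaling these were 606 and 576, so the balance of directions depends on the scaling. With sgRNA3, 2 passed (SULF2 lower and GLCE higher), against 9.08% of all genes tested (3.84% higher and 5.25% lower), or 637 higher and 872 lower genes, which became 1042 and 788 under median-of-ratios scaling. At an unadjusted limma p under 0.05 there were 3 members with sgRNA1 and 4 with sgRNA3, against 24.6% and 28% of all genes. SULF2 was the only member that passed with both guides, where 4.05% of all genes passed in the same direction. These comparisons share the LACZ libraries. SULF2 is the gene the guides target, so its calls are not a result about the chain enzymes. Apart from it, HS3ST2 passed with sgRNA1 and GLCE with sgRNA3. HS3ST2 met the filter on low values only through its LACZ and sgRNA3 libraries. The median log2 change over the members was 0.025 with sgRNA1 and -0.035 with sgRNA3, against -0.07 and -0.045 over all genes. Guide and LACZ libraries did not overlap for 5 of 10 members with sgRNA1, against 55% of all genes. Of these, 2 were above LACZ (19.8% of all genes) and 3 below (35.2%). With sgRNA3 the libraries did not overlap for 9 of 10 members, against 59.1% of all genes, with 4 above LACZ (24.8%) and 5 below (34.3%). For sgRNA1 the share of members without overlap was near that of all genes.

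**Figure D2:**
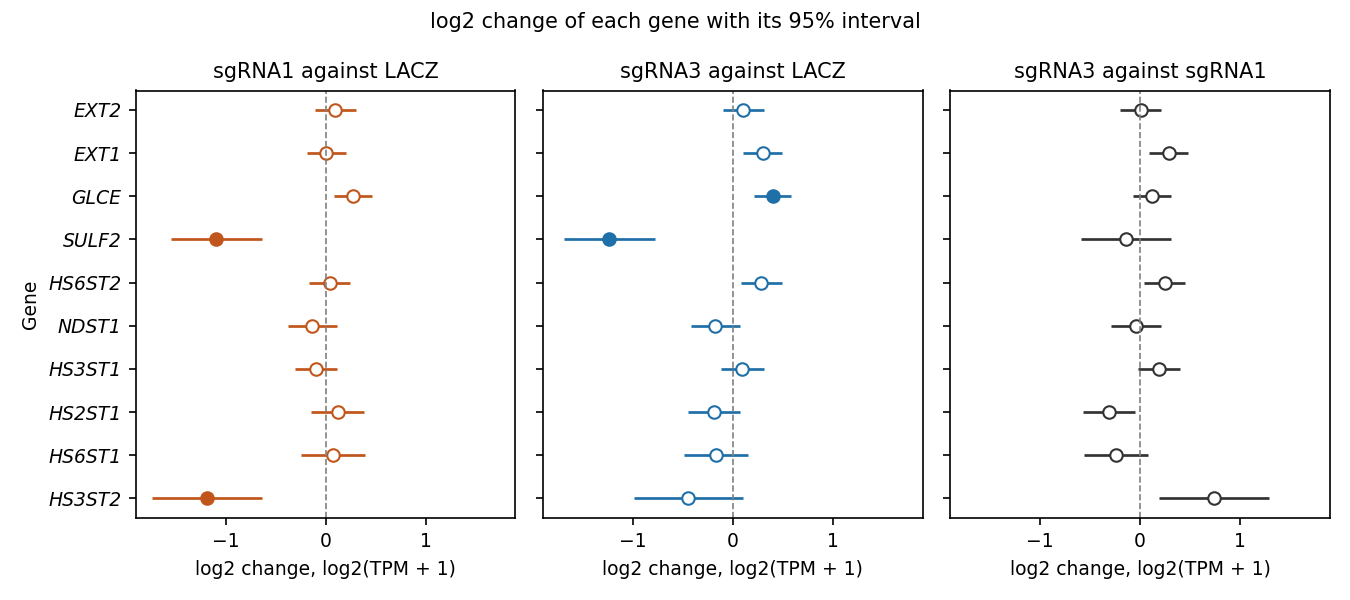
The log2 change of each gene on the log2(TPM + 1) scale (point) with its 95% limma interval (line), for both guides against LACZ and for the guides against each other. Filled points have an adjusted p under 0.05: SULF2 and HS3ST2 with sgRNA1, SULF2 and GLCE with sgRNA3, and none between the guides.

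The chain polymerases did not pass with either guide. EXT1, the subunit with most of the polymerising activity, was at 28.68 and 30.88 TPM in LACZ, 29.62 and 30.28 with sgRNA1, and 38.38 and 35.36 with sgRNA3. Only the sgRNA3 pair lay above LACZ, with a log2 change of 0.30 (95% interval 0.10 to 0.49, limma adjusted p = 0.0757), and with sgRNA1 the interval ran from -0.19 to 0.20. EXT2, its partner in the complex, was at 32.11 and 33.90 TPM in LACZ, 36.16 and 34.46 with sgRNA1, and 33.61 and 37.50 with sgRNA3. On the log2 scale EXT2 differed by 0.09 and 0.10 (limma adjusted p = 0.533 and 0.468). The sum of EXT1 and EXT2 was 60.79 to 64.78 TPM in LACZ, 64.74 to 65.78 with sgRNA1 and 71.99 to 72.86 with sgRNA3, and EXT1 made up 47.4%, 45.9% and 50.9% of it on average.

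NDST1, which starts chain modification and so sets where later sulfation can occur, was at 20.67 and 18.61 TPM in LACZ, 18.78 and 16.91 with sgRNA1, and 17.06 and 17.50 with sgRNA3. On the log2 scale NDST1 differed by -0.13 and -0.17 (limma adjusted p = 0.474 and 0.321). NDST2, the other isoform of this step above 1 TPM, was at 8.12 and 11.68 TPM in LACZ, 11.72 and 15.15 with sgRNA1, and 13.95 and 14.99 with sgRNA3, and did not pass either (log2 changes 0.41 and 0.52, adjusted p = 0.285 and 0.172). The summed level of the step was 29 to 30.73 TPM in LACZ and 30.63 to 32.75 TPM in the guide libraries. NDST1 made up 65.9% ± 7.58 (SD, n = 2) of it in LACZ, 56.9% ± 6.28 with sgRNA1 and 54.0% ± 0.764 with sgRNA3, and the LACZ and sgRNA1 shares overlapped.

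GLCE, the single epimerase that makes iduronic acid, was higher with sgRNA3. It was at 26.15 and 25.34 TPM in LACZ, 31.48 and 31.28 with sgRNA1, and 32.71 and 35.85 with sgRNA3. All 4 guide libraries were above both LACZ libraries, at 122% and 133% of the LACZ mean. The log2 change with sgRNA3 was 0.40 (SE 0.07, 95% interval 0.21 to 0.59, limma adjusted p = 0.0380), and with sgRNA1 it was 0.28 (95% interval 0.09 to 0.46, adjusted p = 0.0979), which passed only under median-of-ratios scaling (adjusted p = 0.0497). The interval of the difference between the guides ran from -0.07 to 0.31 (limma adjusted p = 0.503). Leaving out any single library ended the sgRNA3 call (0.130 without LACZ_1, 0.150 without LACZ_2, 0.0673 without S1_1, 0.0671 without S1_2, 0.10 without S3_1 and 0.153 without S3_2), and it was lost with no filter (0.0591), no trend (0.0734) or only the groups compared (0.0664).

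HS2ST1, the single 2-O-sulfotransferase of heparan sulfate, was at 19.26 and 16.34 TPM in LACZ, 19.15 and 19.57 with sgRNA1, and 15.56 and 15.33 with sgRNA3. The sgRNA3 libraries were the lowest of the 6, and the sgRNA1 libraries fell within or just above the LACZ pair. The log2 change was 0.12 with sgRNA1 and -0.19 with sgRNA3 (limma adjusted p = 0.538 and 0.308). HS2ST1 shares 720 of its 7429 exonic bases with AC093155.3, a gene of 1.97 to 4.58 TPM on the same strand, so reads could be split between them.

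The 6-O-sulfotransferases, the writers of the mark that SULF2 erases, did not pass with either guide. HS6ST2 was at 21.69 and 20.28 TPM in LACZ, 22.19 and 21.03 with sgRNA1, and 26.56 and 25.09 with sgRNA3, where both libraries were above the other 4. Its log2 change was 0.04 with sgRNA1 (95% interval -0.17 to 0.25) and 0.29 with sgRNA3 (0.08 to 0.49, limma adjusted p = 0.0921). HS6ST1 was at 11.38 and 12.33 TPM in LACZ, 13.56 and 11.54 with sgRNA1, and 9.87 and 11.07 with sgRNA3. Changes of HS6ST1 on the log2 scale were 0.07 and -0.17 (adjusted p = 0.773 and 0.452). HS6ST3, the third isoform of the family, was at 0.01 to 0.14 TPM. HS6ST2 made up 63.9% ± 2.43 (SD, n = 2) of the summed 6-O-sulfotransferases in LACZ, 63.1% ± 1.80 with sgRNA1 and 71.1% ± 2.5 with sgRNA3.

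The ratio of 6-O-sulfotransferase to SULF2 transcript was higher in each guide library than in either LACZ library. HS6ST1 and HS6ST2 together stood at 1.29 and 1.45 times SULF2 in LACZ_1 and LACZ_2, 3.98 and 2.54 times in S1_1 and S1_2, and 3.62 and 3.91 times in S3_1 and S3_2. The group means were 1.37 ± 0.114 (SD, n = 2), 3.26 ± 1.02 and 3.77 ± 0.209. The sum of HS6ST1 and HS6ST2 itself was 32.8 ± 0.325 TPM in LACZ, 34.2 ± 2.25 with sgRNA1 and 36.3 ± 0.191 with sgRNA3, so most of the difference in the ratio lay in its SULF2 term, the targeted gene. With 4 guide and 2 LACZ libraries, a two-sided exact permutation test cannot go below p = 0.0667, the value it gave. Nothing is read from it, since the ratio is divided by the targeted gene and the guides are not replicates of each other. These are ratios of transcript, and sulfate on the chains was not measured.

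**Figure D3:**
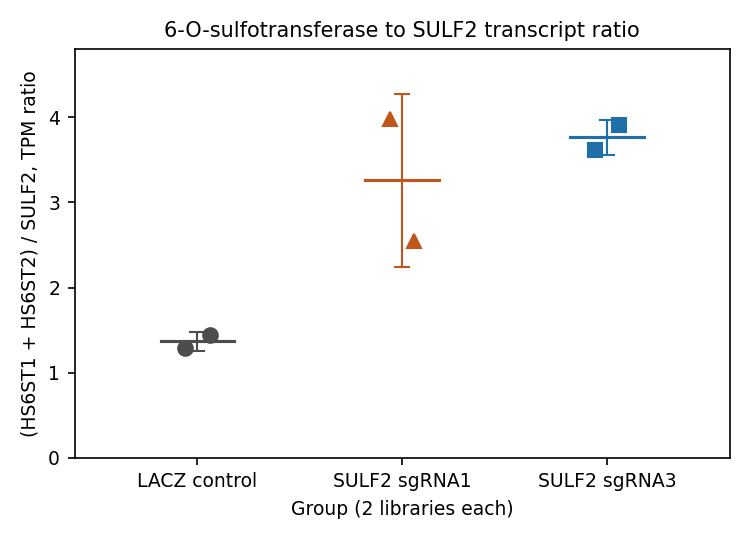
Ratio of the summed TPM of HS6ST1 and HS6ST2 to that of SULF2, with a point for each library, a line at the group mean and a bar of 1 SD (n = 2). The LACZ libraries lie at 1.29 and 1.45 and the guide libraries between 2.54 and 3.98.

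HS3ST2, a 3-O-sulfotransferase best known from the brain and the lowest of the 10 genes, fell with sgRNA1. It was at 3.01 and 2.94 TPM in LACZ, 0.94 and 0.57 with sgRNA1, and 2.04 and 1.81 with sgRNA3. The groups did not overlap, and the sgRNA1 libraries were the lowest of the 6. The means were 2.98 ± 0.0495 TPM (SD, n = 2), 0.755 ± 0.262 (25.4% of LACZ) and 1.93 ± 0.163 (64.7% of LACZ). The log2 change was -1.19 with sgRNA1 (SE 0.22, 95% interval -1.74 to -0.64, limma adjusted p = 0.0438), which ranked 321st of 16610 from the most lowered, and -0.44 with sgRNA3 (95% interval -0.99 to 0.11, adjusted p = 0.259). The guides differed by 0.74 (95% interval 0.19 to 1.29), and that test did not pass (limma adjusted p = 0.223). HS3ST2 passed the filter of 1 TPM through its LACZ and sgRNA3 libraries alone. Leaving out any single library ended the sgRNA1 call (0.177 without LACZ_1, 0.163 without LACZ_2, 0.0888 without S1_1, 0.144 without S1_2, 0.0869 without S3_1 and 0.0878 without S3_2). It was also lost with no filter (0.103) and with only the groups compared (0.0801), and the log2 change was -1.88 with a pseudocount of 0.1 and -0.47 with 5.

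HS3ST1, which makes the site that antithrombin binds, carried most of the 3-O-sulfotransferase transcript and did not pass. It was at 19.39 and 17.89 TPM in LACZ, 17.41 and 17.26 with sgRNA1, and 20.40 and 19.52 with sgRNA3. The sgRNA1 pair lay just below LACZ and the sgRNA3 pair just above it, with log2 changes of -0.10 and 0.09 (limma adjusted p = 0.533 and 0.522) and a difference between the guides of 0.19 (adjusted p = 0.364). Of the other isoforms, HS3ST5 was at 0.41 to 0.47 TPM in LACZ and sgRNA1 libraries and 0.97 and 1.07 with sgRNA3, below the filter. HS3ST3A1 and HS3ST3B1 were at 0 to 0.09 TPM, and HS3ST4 and HS3ST6 were listed at 0 throughout. HS3ST1 made up 84.3% ± 0.969 (SD, n = 2) of the step in LACZ, 93.4% ± 1.74 with sgRNA1 and 87.0% ± 0.219 with sgRNA3, and HS3ST2 13.5% ± 0.382, 4.05% ± 1.31 and 8.38% ± 0.467. The summed step was 21.39 to 22.81 TPM in LACZ, 18.24 to 18.89 with sgRNA1, and 22.48 to 23.41 with sgRNA3.

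**Figure D4:**
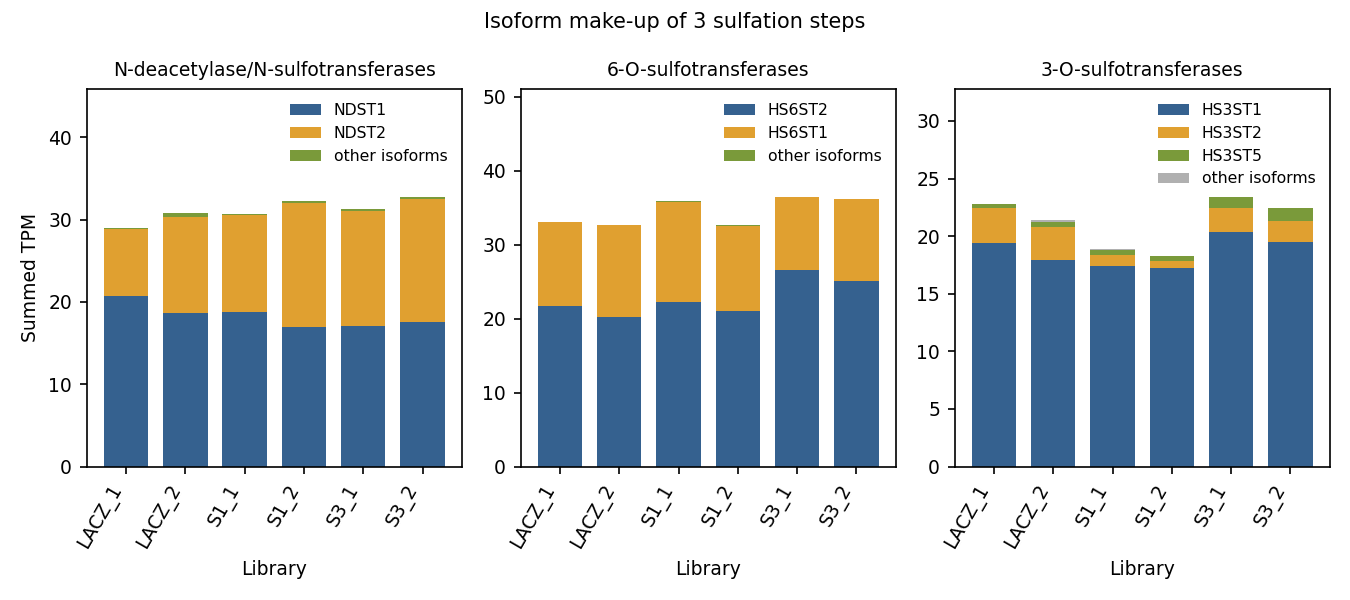
Summed TPM of the isoforms that carry out N-, 6-O- and 3-O-sulfation in each of the 6 libraries, stacked by isoform, with isoforms below 1 TPM in every library joined as others. NDST1 with NDST2 and HS6ST2 with HS6ST1 make up nearly all of their steps, HS3ST1 is the tallest layer of the third, and the HS3ST2 layer is thinnest in S1_1 and S1_2.

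Between the guides, 0 of the 10 members passed limma's test, against 0.578% of all genes (0.391% higher and 0.187% lower with sgRNA3), and 4 had an unadjusted p under 0.05, against 15.4% of all genes. These were EXT1, HS6ST2 and HS3ST2, higher with sgRNA3 by 0.29, 0.25 and 0.74 on the log2 scale, and HS2ST1, at -0.31 (adjusted p = 0.201, 0.263, 0.223 and 0.267). The libraries of the guides did not overlap for 7 of 10 members, against 47% of all genes. With sgRNA3, 5 of these were above sgRNA1 (28.2% of all genes) and 2 below (18.8%), and SULF2 was among the 3 that overlapped.

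**Figure D5:**
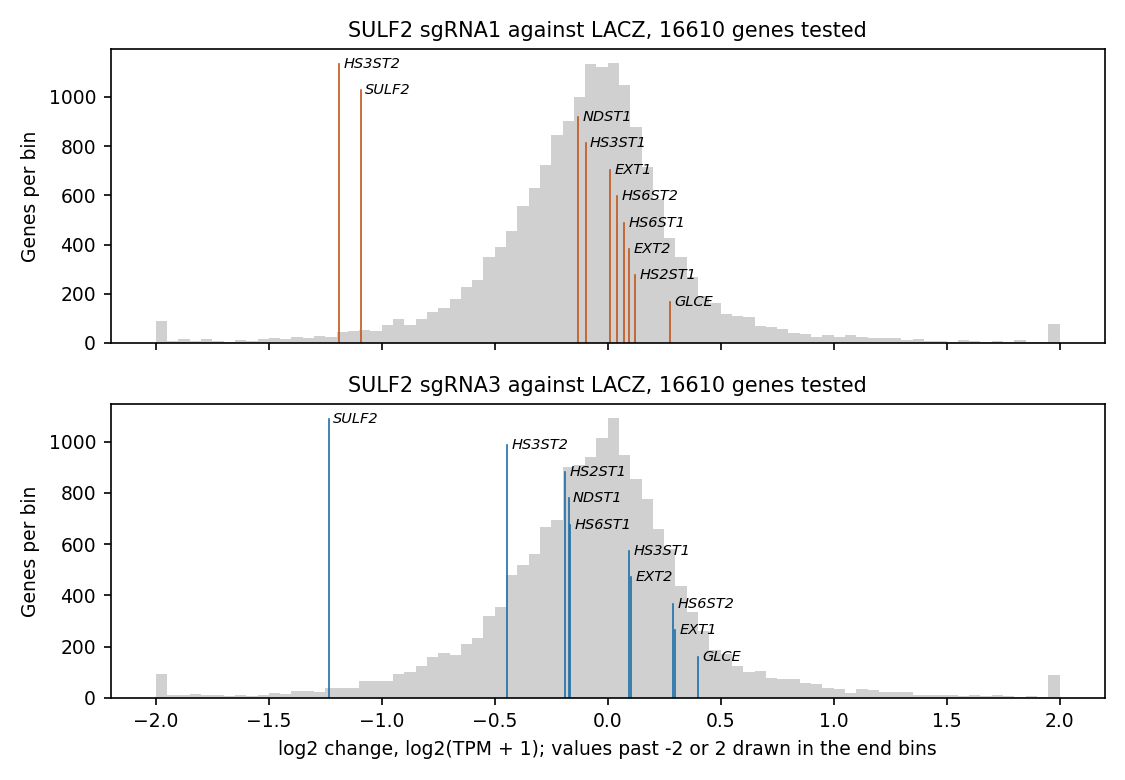
Histograms of the log2 change of all 16610 tested genes with each guide (bins of 0.05, values past -2 or 2 in the end bins), with a line at each of the 10 genes. SULF2 lies in the lower tail with both guides, HS3ST2 in the lower tail with sgRNA1, and the other 8 genes lie between -0.19 and 0.40.

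The rest of the pathway was read from lists chosen by function, whose counts stand beside the shares of all genes given for the members (6% and 9.08% passing, 24.6% and 28% at an unadjusted p under 0.05). Of 10 genes of the linker and chain start, 8 were tested and 0 passed limma's test with either guide (2 and 3 had an unadjusted p under 0.05). Their highest member was XYLT2, a xylosyltransferase that begins the linker, at 34.4 ± 3.03 TPM (SD, n = 2) in LACZ. Of 10 further isoforms of the member families, only NDST2 reached the filter, and it did not pass (unadjusted p under 0.05 with sgRNA3 alone). Of 12 genes that supply the sulfate donor and sugars, all were tested, 0 passed with sgRNA1 (2 with an unadjusted p under 0.05) and 1 with sgRNA3. That gene was UGDH, which makes the glucuronic acid donor, at 54.74 and 47.07 TPM in LACZ, 66.84 and 64.94 with sgRNA1, and 75.77 and 71.75 with sgRNA3. On the log2 scale the differences from LACZ were 0.37 and 0.53 (limma adjusted p = 0.0718 and 0.0268). Its sgRNA3 call was lost without LACZ_2, S1_1, S1_2, S3_1 or S3_2 (0.0888, 0.0574, 0.0567, 0.122 and 0.0964), with no filter (0.0588), no trend (0.0689) or only the groups compared (0.0564). Its sgRNA1 change passed under median-of-ratios scaling (0.0435). UGP2, which makes UDP-glucose, led this list at 91.8 ± 9.36 TPM in LACZ. Of 10 genes listed for the breakdown of heparan sulfate, 9 were tested and 0 passed with either guide (1 and 3 had an unadjusted p under 0.05). GUSB, a lysosomal glucuronidase, was highest at 82.4 ± 1.08 TPM in LACZ.

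Among the proteoglycan core proteins, which carry the chains, 10 of 13 were tested, 1 fell with sgRNA1 and 3 fell with sgRNA3, against 4.31% and 5.25% of all genes. COL18A1, a basement membrane collagen, was at 75.47 and 74.29 TPM in LACZ, 57.70 and 55.19 with sgRNA1, and 49.81 and 47.28 with sgRNA3. This fall was -0.40 and -0.62 on the log2 scale (limma adjusted p = 0.0242 and 0.00790). GPC4, a glypican, and SDC4, a syndecan, passed with sgRNA3 alone (-0.63 and -0.27, adjusted p = 0.0249 and 0.0328). The difference between the guides did not pass for either gene (limma adjusted p = 0.257 and 0.373). Each of these calls was lost when some libraries were left out. For COL18A1 the sgRNA1 call ended whichever of the 6 libraries was left out (0.0555 to 0.129), and the sgRNA3 call ended without LACZ_1, LACZ_2 or S3_2 (0.0583, 0.0573 and 0.0552). For GPC4 and SDC4 the sgRNA3 call likewise ended whichever of the 6 was left out (0.0510 to 0.117 and 0.0540 to 0.143). Fitting only the groups compared ended the COL18A1 call with sgRNA1 and the GPC4 and SDC4 calls (0.0527, 0.0516 and 0.0526). A replicate block ended the same calls (0.0553, 0.0641 and 0.0645), and fitting no trend ended the COL18A1 call with sgRNA1 and the SDC4 call (0.0749 and 0.112). The highest core protein was HSPG2, or perlecan, at 166 ± 5.14 TPM in LACZ.

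Chondroitin and dermatan sulfate are built on the same linker, and of 16 of their enzymes 15 were tested. CHPF2, a chondroitin polymerase subunit, was the 1 gene of the 15 that passed, and it rose with both guides, where 4.05% of all genes passed in a shared direction. It was at 14.61 and 14.51 TPM in LACZ, 23.95 and 20.45 with sgRNA1, and 24.72 and 24.26 with sgRNA3. The rise was 0.57 and 0.71 on the log2 scale (limma adjusted p = 0.0382 and 0.0195). Its sgRNA1 call ended whichever of the 6 libraries was left out (0.0708 to 0.158) and with no filter (0.0683), no trend (0.0697) or only the groups compared (0.0840), and its sgRNA3 call without LACZ_1, LACZ_2, S3_1 or S3_2 (0.0913, 0.0979, 0.10 and 0.0910). With a replicate block the sgRNA1 call of CHPF2 also ended and the sgRNA3 call held (limma adjusted p = 0.0773 and 0.0464). CHPF, another chondroitin polymerase subunit and the highest of the list, was at 43.3 ± 4.61 TPM in LACZ. It did not pass (log2 changes 0.33 and 0.17, adjusted p = 0.103 and 0.305).

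The genes with the profile most like that of SULF2 were sought among 11545 tested genes with a mean of at least 5 TPM. Likeness was the root mean square distance over the 6 libraries between log2(TPM + 1) values, each gene centred on its own mean. The nearest were RGS2 (distance 0.14), which limits G-protein signalling, the long noncoding RNA LINC00923 (0.15), the zinc finger gene ZNF124 (0.16), the transcript AC092818.1 (0.16) and DUSP5 (0.16), a phosphatase of ERK. RGS2 was at 370.2 and 354 TPM in LACZ, 174 and 176 with sgRNA1, and 156 and 154 with sgRNA3. No chain enzyme was near SULF2 by this measure: the closest was HS3ST2 at 0.46, in place 2771 of 16610 with SULF2 itself first, and the farthest was GLCE at 0.73. That place is among all tested genes, since HS3ST2, at a mean of 1.885 TPM, was not among the 11545. A gene that changed little must lie far from SULF2, so these distances largely restate the log2 changes.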

How the data were processed

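RNA-seq was read in 6 libraries of CFPAC-1 cells. The values are TPM with 2 decimals as deposited by the authors. GRCh38, RSEM 1.3.1, HISAT2 2.1.0 and DESeq2 1.24.0 stand in the submitters' processing notes, with no roles; the sources used here do not give annotation release, strandedness or handling of shared reads. The authors' gene length column was not used for any value. Guide and replicate numbers matched the H1 and H3 columns to titles beginning S1 and S3.

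DESeq2 was not run, since TPM are not counts. Genes with a TPM of at least 1 in at least 2 libraries (16610) were analysed as log2(TPM + 1) with limma 3.58.1 in R 4.3.3, the 3 groups in 1 fit with an intensity trend (3 residual degrees of freedom, 2.34 prior). P-values are two-sided, Benjamini-Hochberg adjusted over all genes of a comparison, threshold 0.05; the procedure was tested on simulated data. Members and lists were chosen with earlier results of these data known. Named were the 10 members, SULF1, listed genes that passed with either guide (at most 6 a list), the highest of each list in LACZ, and the 5 genes most like SULF2. Positions are from GENCODE 29, promoters from RefSeq. The 15 alternatives were another pseudocount (0.1 or 5), filter (none or 5 TPM), scaling or prior, only the groups compared, a replicate block, and leaving out each library.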

Additional observations from a re-analysis of the deposited data

How the results depend on the processing

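Members that passed with sgRNA1 numbered 2, and 0 with no filter, 1 with a filter of 5 TPM (which removes HS3ST2) and 1 under quantile normalization. There was 1 with no trend, 0 when only the groups compared were fitted, and 3 under median-of-ratios scaling (with GLCE). Of all genes, 1.84%, 11.3%, 6.03%, 1.78%, 3.02% and 7.12% passed with sgRNA1 under these settings, in the order given. For sgRNA3 the number was 2, and 0 with no filter, 0 with no trend and 1 with only the groups compared, where 2.66%, 3.35% and 6.21% of all genes passed. Leaving out 1 library gave 0 to 1 with either guide. By an unadjusted limma p under 0.05, these settings held 2 to 3 members with sgRNA1 and 2 to 5 with sgRNA3, against 24.6% and 28% of all genes under the settings of the report. With no filter 29500 genes share the adjustment, and leaving out 1 library takes from the 3 residual degrees of freedom. Without S3_1 or S3_2, for example, the log2 change of SULF2 with sgRNA1 stayed at -1.094. How far this accounts for the lost calls was not tested, nor was the cause for the other settings. The replicate block left 0 members with either guide (3 and 4 at an unadjusted p under 0.05), where 2.27% and 3.38% of all genes passed. Deviations of same-numbered libraries correlated at -0.018, 0.006 and -0.031, so no shared shift by number was seen. With 2 libraries a group this cannot show that same-numbered libraries had no batch in common, and the labels do not say. Between the guides 0 passed under each of the 15 alternatives (0 to 5 at an unadjusted p under 0.05). Of all genes, 0% to 1.05% passed between the guides where no library was left out, so a count of 0 says little about the members. SULF2, HS3ST2 and GLCE kept their sign against LACZ under each alternative that tested them. Most could not have turned it. Their guide libraries all lay on the same side of both LACZ libraries, and filter, trend, block and choice of groups leave the log2 change as it was. Only another scaling could have turned a sign.

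Some signs of uncalled changes turned. HS3ST1 with sgRNA1 was 0.022 under quantile normalization, and EXT2 between the guides was -0.020 under median-of-ratios scaling and -0.048 under quantile normalization. Leaving out 1 library gave ranges that cross 0 with sgRNA1 for HS6ST1 (-0.035 to 0.181), HS6ST2 (-0.006 to 0.087) and EXT1 (-0.043 to 0.060), and between the guides for SULF2 (-0.375 to 0.093), NDST1 (-0.114 to 0.029) and EXT2 (-0.069 to 0.085). The log2 difference of the ratio of 6-O-sulfotransferases to SULF2 between the 4 guide libraries and LACZ, a description, was 1.34, 1.19 with HS6ST1 alone, and 1.26 to 1.49 with 1 library left out. Over all genes, 6% and 9.08% passed with sgRNA1 and sgRNA3, against 1.01% to 11.3% and 1.49% to 15.2% over the alternatives. TPM keep no depth, so precision at low levels, as for HS3ST2, is unknown.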

Other observations

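A few genes around the pathway stood out in a single library, and these were chosen after their values were seen. GPC5, a glypican core protein, was at 29.60 TPM in S1_1, at 0.35 TPM in S1_2 and listed at 0 in the other 4 libraries, so that it did not reach the filter. DSE, an epimerase of dermatan sulfate, was at 13.03 TPM in S3_1 and at 2.68 to 3.8 TPM in the other 5. SDC1, a syndecan core protein, was at 87.76 TPM in LACZ_1 and 159.65 in LACZ_2, a wider spread than between any of the 4 guide libraries (107.09 to 120.95 TPM).

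Linker gene B3GALT6, a galactosyltransferase, was at 11.34 and 13.18 TPM in LACZ and at 16.58 to 18.44 TPM in the 4 guide libraries, with no overlap (log2 changes 0.48 and 0.50). It did not pass with either guide (limma adjusted p = 0.0783 and 0.0591).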
